A study of Saccharomyces cerevisiae with 12 samples.

Results

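Tandem spacers are the stretches between neighbouring coding genes that are read in the same direction, so that each one follows the end of an upstream gene and precedes the start of a downstream gene. The RefSeq R64 table gave 2828 of them in the nuclear genome. After leaving out 106 in the outer 20 kb of a chromosome and another 140 with a tRNA gene or centromere within 250 bp, 2582 remained of 5369 spacers of all orientations under the same filters, 1303 on the Watson and 1279 on the Crick strand. Their median length was 383 bp, from 4 to 10122 bp, and they covered 1288 kb. A spacer counted as occupied when the summit of a peak, the base with the highest signal in it, lay in the spacer. Position was measured from 0 at the upstream gene's end to 1 at the downstream gene's start, and gene ends are those of the annotated coding spans. A transcript's untranslated ends therefore fall inside the spacer.

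The chromatin came from haploid budding yeast of the W303 strain in which Scc2 carried 13 Myc epitopes (SCC2-13MYC), Med14 carried an auxin-inducible degron (MED14-AID*-6FLAG) and the plant F-box protein OsTIR1 was expressed from the ADH1 promoter at URA3, in every sample. Of the 12 samples, 3 cultures treated with 1 mM auxin and 3 cultures labelled as untreated gave a Myc immunoprecipitate with a peak list each, and the 6 samples of total chromatin are not analysed here. Per the labels' protocols, cells went from an alpha-factor arrest in G1 into a nocodazole arrest in mitosis, several immunoprecipitations of a replicate were combined, and tagged fission yeast cells were added, which do not enter the values here. All results rest on 1 strain. Since both groups share one genotype, an effect of auxin itself and of Med14 loss cannot be told apart. The labels repeat the auxin step for every sample, so that the comparison rests on the titles and the treatment labels.

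Scc2 forms with Scc4 the complex that loads cohesin, the ring that holds sister chromatids together, and in yeast it is known to bind at highly transcribed genes, tRNA genes and centromeres. Med14 is the scaffold of Mediator, the coactivator that bridges transcription factors bound upstream of a gene and RNA polymerase II at its promoter. In a tandem spacer the terminator of one gene and the promoter of the next lie in a row. A summit along that row can lie near the 3′ end of the upstream gene, where transcription stops. It can also lie near the upstream activating sequences and core promoter of the downstream gene, or at neither.

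The lists held 2115, 2111 and 1502 peaks without auxin and 964, 1324 and 1569 with auxin, of which 24 to 65 per list were mitochondrial. Their sequencing depth is unknown. Fold enrichment is a value of the authors' peak caller, and its medians without auxin were 1.70, 1.67 and 2.54, the last being the list that differed most from its group. With auxin its medians were 3.93, 2.83 and 2.57. Values below are places and numbers of called peaks, not amounts of Scc2. Depletion of Med14 could not be checked in peak lists. The tag cassettes are not in the reference, and no list held a summit in the tandem spacer behind RGR1, the RefSeq symbol of MED14, or in the one before SCC2. All coordinates are on sacCer3.

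A peak counted once for each tandem spacer it touched. Without auxin, the summits of peaks that reached into a tandem spacer lay more often in the upstream gene than in any other place, and with auxin they lay mostly in the spacer itself. The summit was in the upstream gene for 50.4%, 55.9% and 41.8% of these peaks in the lists without auxin and for 20.0%, 26.5% and 21.5% in those with auxin. The means were 49.3 ± 7.10% and 22.7 ± 3.41% (SD, n = 3 each), and the groups did not overlap. The summit was in the spacer for 25.4%, 24.2% and 38.1% without auxin and for 64.4%, 58.6% and 61.7% with auxin, which is 29.2 ± 7.69% against 61.6 ± 2.92% (SD, n = 3 each). Every list with auxin was thus above every list without it. The downstream gene held the summit for 16.2 ± 2.93% without and 10.5 ± 1.04% with auxin (SD, n = 3 each), again with no overlap. For each of the 3 places the exact two-sided permutation test of the lists gave p = 0.1, the lowest that 20 assignments of the lists permit, and the adjusted value over 23 tests was 0.153. No comparison here can pass a threshold of 0.05.

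**Figure D1:**
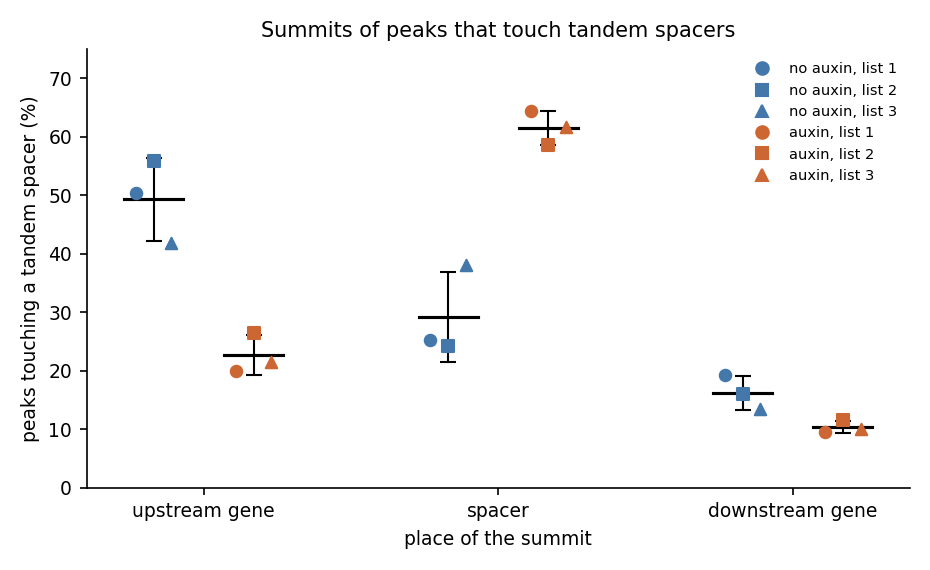
Share of peaks touching a tandem spacer (y axis, %) whose summit lay in the upstream gene, the spacer or the downstream gene (x axis). Each symbol is a list, black bars are the mean and SD of 3 lists, and the remaining 3.26% to 6.75% of peaks, with a summit farther away, are not drawn. The lists with auxin are the lower ones in the upstream gene and the higher ones in the spacer.

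The lists closest in length and enrichment differed in the same way. The third list without auxin and the third with auxin held 1502 and 1569 peaks at median folds of 2.54 and 2.57. Their summits were in the spacer for 102 of 268 and for 201 of 326 combinations of a peak and a spacer it touched. The number of tandem spacers touched by a peak at all overlapped between groups, at 261, 265 and 259 without and 133, 206 and 312 with auxin (exact permutation p = 0.4, adjusted 0.418). Over the whole nuclear genome, 73.3 ± 7.86% of summits lay in coding genes without and 48.0 ± 3.16% with auxin (SD, n = 3 each, with an exact permutation p = 0.1 and an adjusted value of 0.153). Tandem spacers held 3.46%, 3.32% and 7.09% of all nuclear summits without auxin and 9.26%, 9.96% and 13.3% with auxin.

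The density of summits along the spacer's 2 ends located this difference. Without auxin it was highest in the last part of the upstream gene, in the bin 100 to 200 bp before the gene's end, at 0.480 ± 0.125 summits per kb against 0.158 ± 0.0742 with auxin (SD, n = 3 each). Inside the spacer the mean density was higher with auxin in each bin up to 700 bp behind the upstream gene's end, equal from 700 to 800 bp and lower from 800 to 1000 bp. The widest gap was in the bin from 500 to 600 bp, with 0.0551 ± 0.0229 summits per kb without auxin compared with 0.240 ± 0.0688 with it (SD, n = 3 each). Seen from the downstream gene, the bin 300 to 400 bp before its start held 0.0928 ± 0.0218 summits per kb without and 0.215 ± 0.0578 with auxin (SD, n = 3 each). The 100 bp directly before the start were nearly empty in both groups, at 0.0365 ± 0.0126 and 0.0169 ± 0.00597 (SD, n = 3 each). These bins were picked after the profile was seen, and none was tested.

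**Figure D2:**
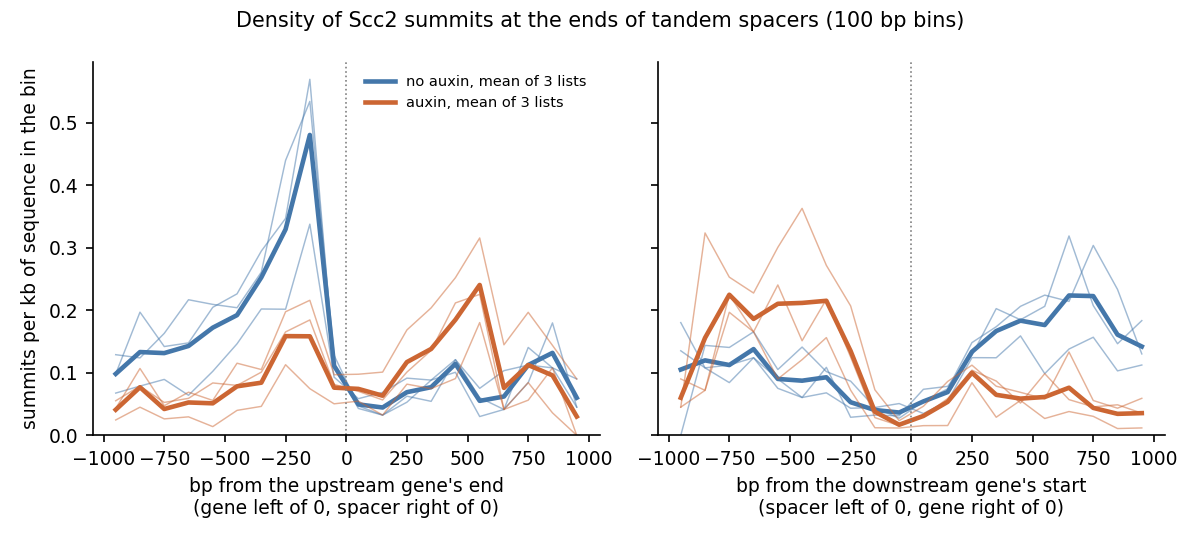
Summits per kb of sequence (y axis) in 100 bp bins around the upstream gene's end (left) and the downstream gene's start (right). Thin lines are lists and thick lines the mean of 3 lists. Without auxin the density rises toward the upstream gene's end, to 0.480 summits per kb 100 to 200 bp before it, and with auxin it is highest inside the spacer.

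Spacers whose peak was centred in the upstream gene were mostly touched by no peak after auxin. In at least 2 of 3 lists without auxin, 119 tandem spacers were touched by a peak with its summit in the upstream gene. Of these, 105 were touched by no peak in at least 2 of 3 lists with auxin. A summit in the spacer was present in 11, and 3 were still touched by a peak centred in the upstream gene. Another 69 held a summit in the spacer in at least 2 lists without auxin, and of these 38 also did in at least 2 lists with auxin and 27 were touched by no peak. A peak in the upstream gene that did not reach the spacer was not counted, so loss of peaks from the genes was not measured. The median peak width was 418, 424 and 434 bp without and 358, 386 and 414 bp with auxin. In the 3 lists with auxin, 110, 103 and 91 of the 119 were untouched, against 43, 27 and 19 of the 69. Of 35 spacers with the summit in the downstream gene in at least 2 lists without auxin, 25, 20 and 15 were untouched. In each list the share untouched was thus highest for summits in the upstream gene and lowest for those in the spacer. The differences were not tested. Over spacers of all orientations touched in at least 2 lists without auxin, 68.9% were touched in at most 1 list with auxin, and for tandem spacers it was 162 of 253, or 64.0%. In the other direction, 68 of the 127 spacers with a summit in at least 2 lists with auxin had been touched by no peak in at least 2 lists lacking auxin.

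Few tandem spacers held a summit in any one list. Without auxin 69, 66 and 100 were occupied, or 2.67%, 2.56% and 3.87%, and with auxin 85, 123 and 197, or 3.29%, 4.76% and 7.63%. The first list with auxin lay below the third without it, so the groups overlapped (exact permutation p = 0.2, adjusted 0.256). The means were 3.03 ± 0.729% and 5.23 ± 2.21% (SD, n = 3 each). Their difference of 2.19 points was 0.994 without the third list with auxin. Divergent spacers, which hold the promoters of both neighbours, were occupied at 2.73 ± 0.775% and 9.93 ± 3.66% (SD, n = 3 each, with an exact permutation p = 0.1 and an adjusted value of 0.153). Convergent spacers, which hold no promoter of a neighbour, were occupied at 1.52 ± 0.217% and 0.473 ± 0.0820% (SD, n = 3 each, with an exact permutation p = 0.1 and an adjusted value of 0.153). The tandem share exceeded the divergent share by 0.352, 0.308 and 0.247 percentage points in the lists without auxin. With auxin the tandem minus divergent difference was -2.94, -5.24 and -5.93 points, without overlap (exact permutation p = 0.1, adjusted 0.153). The tandem minus convergent difference was 1.39, 0.852 and 2.31 points without and 2.87, 4.34 and 7.06 with auxin (exact permutation p = 0.1, adjusted 0.153), and the difference between groups, 3.24 points, was 2.08 without the third list with auxin.

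**Figure D3:**
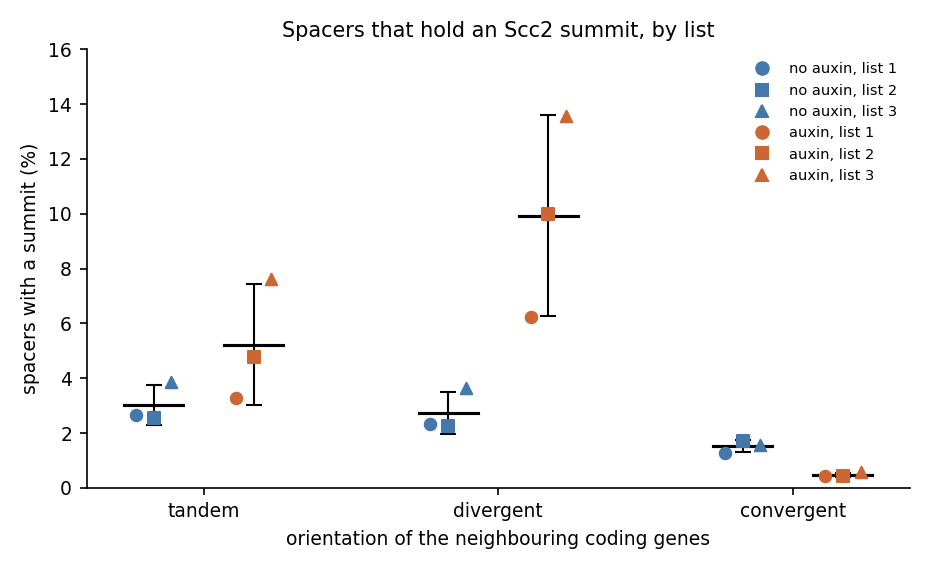
Share of spacers holding a summit (y axis, %) by the orientation of the neighbouring coding genes (x axis). Each symbol is a list and black bars are the mean and SD of 3 lists. Without auxin tandem spacers, at 3.03%, are above divergent ones at 2.73% and convergent ones at 1.52%. The shares are not adjusted for spacer length, which differs between the orientations. With auxin divergent spacers are highest, at 9.93% against 5.23% for tandem ones.

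Occupancy rose with spacer length in every list. Of 490 spacers under 250 bp, 2, 1 and 3 were occupied without and 2, 2 and 3 with auxin. Of 1292 spacers from 250 to under 500 bp it was 15, 17 and 26 without and 16, 27 and 43 with auxin. Among 606 spacers from 500 to under 1000 bp, 5.78 ± 1.31% were occupied without and 11.1 ± 4.59% with auxin, and among 194 of 1000 bp or more, 11.3 ± 2.25% and 19.1 ± 7.80% (SD, n = 3 each). Per kb of spacer the class from 500 bp to under 1000 bp was the densest in all 6 lists, at 0.0812, 0.0713 and 0.108 summits per kb without and 0.103, 0.155 and 0.241 with auxin. Over all lengths, 0.0624 ± 0.0146 summits per kb without auxin compared with 0.107 ± 0.0450 with it (SD, n = 3 each, with an exact permutation p = 0.2 and an adjusted value of 0.256). The difference of 0.0448 was 0.0203 without the third list with auxin.

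Among summits inside tandem spacers, relative position overlapped between groups, while the distance from the upstream gene did not. The median position was 0.469, 0.460 and 0.508 without and 0.447, 0.464 and 0.508 with auxin (exact permutation p = 0.7, adjusted 0.7), and the share of summits past the midpoint was 46.6 ± 4.67% and 43.3 ± 6.74% (SD, n = 3 each, with an exact permutation p = 0.4 and an adjusted value of 0.418). In base pairs, the median distance to the downstream gene's start was 374, 375.5 and 369 bp without and 396, 373 and 386 bp with auxin (exact permutation p = 0.3, adjusted 0.363). The median distance to the upstream gene's end was 327, 344 and 297.5 bp without and 348, 356 and 351 bp with auxin, so every list with auxin was above every list without it (exact permutation p = 0.1, adjusted 0.153). This difference, 28.8 bp, was 16.2 bp without the third list lacking auxin and -17.8 bp with lists cut to equal length. The difference in distance to the downstream start, 12.2 bp, was 6.67 bp without the first list with auxin. With each spacer cut into 5 equal stretches, the middle one held the largest share in each group, 29.6 ± 3.63% without and 36.4 ± 2.44% with auxin (SD, n = 3 each). The stretch next to the downstream gene held 14.2 ± 2.73% without and 7.93 ± 1.10% with auxin (SD, n = 3 each). Within 100 bp of the downstream gene's start lay 8 of 71, 7 of 68 and 13 of 102 summits without auxin and 3 of 87, 4 of 126 and 6 of 201 with auxin, which is 11.4 ± 1.23% against 3.20 ± 0.233% (SD, n = 3 each, with an exact permutation p = 0.1 and an adjusted value of 0.153). In spacers with no RNA gene these shares were 9.62%, 6.12% and 11.8% without and 2.44%, 2.50% and 3.14% with auxin, also without overlap. By strand, the median position on the Watson strand was 0.512, 0.512 and 0.538 without and 0.463, 0.460 and 0.510 with auxin. On the Crick strand it was 0.417, 0.375 and 0.455 without and 0.422, 0.476 and 0.498 with auxin. Groups overlapped on the Crick strand and did not on the Watson strand, and neither was tested.

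Annotated RNA genes lay in 54 of the tandem spacers, 29 of which held a snoRNA or snRNA gene. A summit was present in 18, 18 and 16 of the 29 without auxin and in 3, 3 and 6 with auxin, which is 59.8 ± 3.98% against 13.8 ± 5.97% (SD, n = 3 each, with an exact permutation p = 0.1 and an adjusted value of 0.153). The lowest list without auxin, at 16, was above the highest with auxin, at 6. Of the 2528 spacers with no RNA gene, 50, 47 and 83 held one without and 80, 118 and 188 with auxin, where the groups overlapped narrowly (exact permutation p = 0.2, adjusted 0.256). The share without an RNA gene minus the share with a snoRNA or snRNA gene went from -57.4 ± 4.77 to -8.70 ± 4.01 percentage points (SD, n = 3 each, with an exact permutation p = 0.1 and an adjusted value of 0.153). Without auxin, 17 of 18, 18 of 18 and 15 of 16 summits in the 29 spacers lay within 250 bp of an annotated RNA gene. With auxin it was 2 of 3, 2 of 4 and 5 of 7. Inside such a gene lay 8, 4 and 5 summits without and 1, 2 and 4 with auxin. How much of these spacers lies within 250 bp of an RNA gene was not measured, so no expected share is given.

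A summit in all 3 lists without auxin and in none with auxin marked 14 tandem spacers, here called lost, or 0.542%, against a background of 0.41% over spacers of all orientations. A summit in all 6 lists marked 17, called kept, or 0.658% against 0.596%. A summit in all 3 lists with and none without auxin marked 31, called gained, or 1.2% against 1.43%. All 3 shares were near this background, which includes the tandem spacers and joins unlike kinds. Divergent spacers were lost, kept and gained at 0.363%, 0.798% and 3.34%, and convergent ones at 0.213%, 0.284% and 0%. The rest of the 248 tandem spacers with a summit in any list had other combinations. The gained count depended on single lists: leaving out the third list lacking auxin gave 49, and leaving out the first of those with auxin gave 58. A spacer where no peak was called may still hold Scc2.

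Of the 14 lost spacers, 10 held a snoRNA gene, and these 10 were also the ones with the highest fold. The spacer between PCL1, a G1 cyclin gene, and CAF40, of the Ccr4-Not complex (chromosome XIV, 88737 to 90302), holds SNR40. Its summit lay 765, 767 and 770 bp before CAF40 in the lists without auxin, and no peak touched it in any list with auxin. The KSH1-SSN8 spacer (chromosome XIV, 585292 to 586601) holds SNR66 and NME1, the RNA of RNase MRP, and the ASR1-NVJ2 spacer (chromosome XVI, 718469 to 719557) a cluster of SNR51, SNR70 and SNR41. The next were PTM1-RGT1 with SNR69, RPL27B-TRS31 with SNR13, MPS2-RPL7A with SNR39B, CAF20-HEM4 with SNR31 and SNR5, NRG1-YDR042C with SNR47, LSG1-USE1 with SNR82 and BRE5-LYS9 with SNR49. In RPL27B-TRS31, behind a ribosomal protein gene, the summit lay 43, 43 and 62 bp before the start of TRS31, a subunit gene of the TRAPP trafficking complex. The 4 lost spacers with no RNA gene were RPL41B-PPH21, RRP6-ALG6, RAD34-PIB1 and RER1-YCL001W-A. In RPL41B-PPH21, behind another ribosomal protein gene, the summit stood at 0.34, 0.32 and 0.33 of the way to PPH21, a protein phosphatase 2A gene. Of all 14, a peak with its summit elsewhere touched 2 in at least 1 list with auxin, ASR1-NVJ2 and RRP6-ALG6.

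The kept spacers with the highest fold without auxin were led by ADE16-AAT2 (chromosome XII, 198086 to 199539), which holds SNR30, a snoRNA needed for ribosomal RNA processing. A summit inside SNR30 was called in all 6 lists. SPR3-ERG25 (chromosome VII, 609102 to 610563), before a sterol biosynthesis gene, holds SNR48. Its summit lay 207, 182 and 217 bp from SNR48 without and 236, 298 and 284 bp with auxin. The others of the first 10 were RPL36B-ATG41, YLR162W-RRT15, VMA13-SPO24, YLH47-YPR127W, BAG7-IDH2, YDR170W-A-HSP42, YKR041W-UTH1 and MRP20-PDR15. YLR162W-RRT15 lies beside the ribosomal DNA and its 5S RNA genes, and YDR170W-A belongs to a Ty retrotransposon, so reads of repeated copies make both uncertain.

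In several kept spacers the summit stood at a similar distance from the downstream gene in all lists. Before IDH2, a subunit of mitochondrial isocitrate dehydrogenase (chromosome XV, 579794 to 580249), it lay 383, 378 and 388 bp from the gene's start without and 379, 387 and 364 bp with auxin. Before YPR127W it lay 305, 306 and 291 bp away without and 297, 308 and 310 bp with auxin. Before PDR15, a multidrug transporter gene (chromosome IV, 1278438 to 1279209), the distances were 408, 408 and 373 bp without and 374, 392 and 369 bp with auxin. In these 3 spacers the lists of the groups overlapped.

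Across the kept spacers as a whole, summits stood nearer to the downstream gene with auxin. The median position of their summits was 0.329, 0.358 and 0.344 without and 0.426, 0.424 and 0.424 with auxin, with no overlap (exact permutation p = 0.1, adjusted 0.153). The difference (auxin minus no auxin) was 0.0812, and it was 0.0356 without the second list lacking auxin and 0.0483 without the first with auxin. Toward the downstream gene moved 13 of 17 spacers by their mean and toward the upstream gene 4, and in 4 of the 13 the mean positions per list did not overlap between groups. No such counts over spacers of other orientations are given here, so these describe the 17 only, and neither was tested. The spacers without overlap were YDR170W-A-HSP42, ENT4-UBI4, COX19-KNS1 and SPR3-ERG25. The first of these rests on means. Before HSP42, a small heat shock protein gene, the first list without auxin had a summit 1950 bp from the gene's start, the second had 2 at 262 and 1332 bp, and the third had 2 at 239 and 1968 bp. With auxin a single summit lay at 229, 247 and 253 bp, so the summits near the gene overlapped between groups and those farther away were called only without auxin. Before UBI4, the polyubiquitin gene, it lay 374, 370 and 402 bp away without and 307, 327 and 353 bp with auxin. A further spacer, RPL36B-ATG41, had its summit close behind RPL36B in the first 2 lists without auxin, 855 and 882 bp before ATG41, but at 389 bp in the third. With auxin it stood at 434, 389 and 413 bp, so that the third list without auxin matched those with auxin. In no kept spacer did every list with auxin have a mean nearer to the upstream gene than every list without it.

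Of the 31 gained spacers, 23 were touched by no peak in any list without auxin. The one with the highest fold was PHO4-QCR6 (chromosome VI, 224770 to 225019), before a subunit gene of respiratory complex III, where the summit lay 247, 245 and 217 bp before QCR6 with auxin, directly behind PHO4 in the first 2 of them. A peak touched it in 2 lists without auxin, with the summit in PHO4 or in QCR6. ARP7-GLN1 (chromosome XVI, 640959 to 642207) followed, before the glutamine synthetase gene, with summits 707, 729 and 759 bp away. SUM1-GIC2, RFC3-PCL1 and CIK1-CLN1 stand before a Cdc42 effector gene and 2 G1 cyclin genes. In SUM1-GIC2 (chromosome IV, 1080200 to 1081127) the summit lay 428, 437 and 421 bp before GIC2, and in RFC3-PCL1 (chromosome XIV, 87241 to 87896) 293, 320 and 313 bp before PCL1. None of the 3 spacers was touched by a peak without auxin. PCL1 thus had a summit in the spacer behind it in all lists without auxin, where SNR40 lies, and in the spacer before it in all lists with auxin.

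The remaining 5 of these 10 were HHF1-FLR1, PDC6-PIL1, CCS1-MSN2, ARG80-MCM1 and PUS2-PYC1. In HHF1-FLR1 (chromosome II, 254210 to 255372) the summit lay 444, 438 and 428 bp before FLR1, a drug efflux gene. In PDC6-PIL1, before the gene of an eisosome protein of the plasma membrane, it lay 290, 298 and 288 bp away. CCS1-MSN2 and ARG80-MCM1 stand before transcription factor genes, and in ARG80-MCM1 the summit lay near the end of ARG80, at 0.12, 0.05 and 0.05 of the spacer. In 8 of the 31 a peak without auxin touched the spacer, with its summit in the upstream gene in at least 1 list for each. In 4 of these it did so in all 3 lists, namely RPS9B-RPL21A, CWP2-CWP1, TSA1-YOX1 and YAR010C-YAR009C, the last a pair of Ty genes and so uncertain. These 4 were named after their values were seen. Over the 31 the mean position with auxin ran from 0.0567 to 0.823 with a median of 0.447, and 12 lay past the midpoint.

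**Figure D4:**
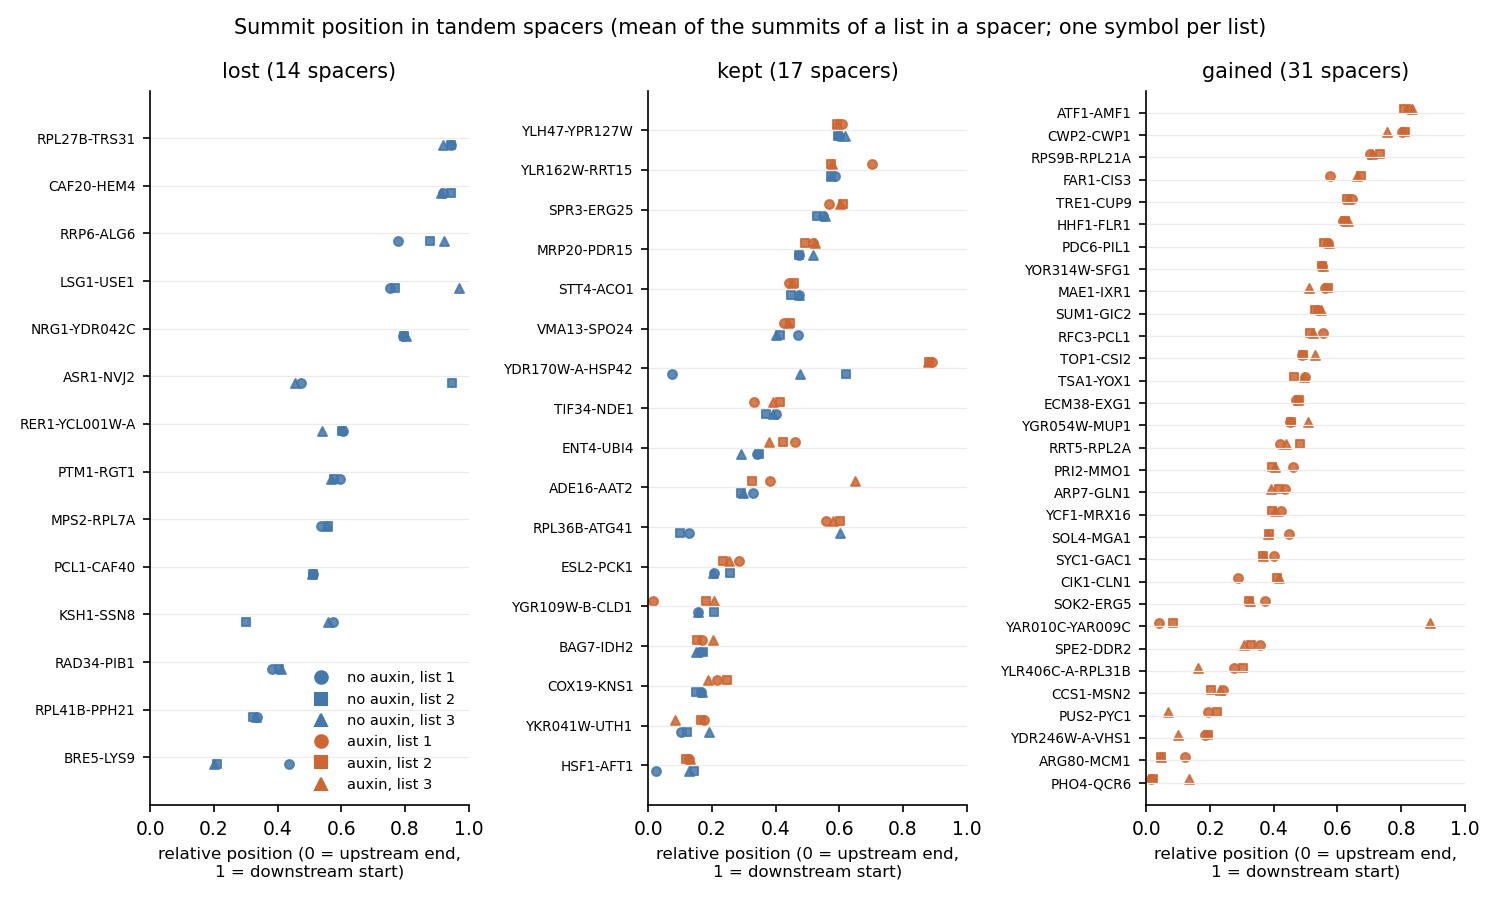
Relative position (x axis, 0 at the upstream gene's end and 1 at the downstream gene's start) of the summit in each lost, kept and gained tandem spacer (rows, named by upstream and downstream gene), as the mean of a list's summits in that spacer. Each symbol is a list. In most rows the lists of a group fall close together, and in 13 of 17 kept rows the mean with auxin is farther right.

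Spacers were also sorted by 11 gene lists, separately for list genes downstream and upstream of the spacer. The lists were chosen with earlier results of these data known, so their counts are a description, and none was tested. Of all tandem spacers 69, 66 and 100 of 2582 were occupied without and 85, 123 and 197 with auxin, and the counts below are read against these. They were not matched for spacer length, with which occupancy rose. Of spacers of 1000 bp or more, 10.3%, 9.79% and 13.9% were occupied without and 12.9%, 16.5% and 27.8% with auxin. A part of length in the counts below was not tested. With a ribosomal protein gene downstream, 3, 2 and 5 of 59 spacers were occupied without and 4, 13 and 23 with auxin, while with one upstream it was 6, 5 and 4 of 63 without and 2, 5 and 9 with auxin. Both overlapped between groups. The summits before ribosomal protein genes with auxin lay in a narrow range, at a median of 278.5, 246 and 257 bp before the gene's start and never more than 390 bp away. Without auxin the medians were 430, 297.5 and 255 bp, over only 3, 2 and 5 summits, which lay from 79 to 901 bp away. Lost spacers with such a gene were MPS2-RPL7A, RPL27B-TRS31 and RPL41B-PPH21, the kept one was RPL36B-ATG41, and the gained ones, named after their values were seen, were RPS9B-RPL21A, RRT5-RPL2A and YLR406C-A-RPL31B. Near-identical ribosomal protein copies can exchange reads in coding sequence.

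Before cell wall and plasma membrane genes, G1/S genes and drug efflux genes, every list with auxin had more occupied spacers than any list without it. With a cell wall or plasma membrane gene downstream, 0, 0 and 1 of 14 were occupied without and 4, 7 and 9 with auxin. Those gained, named after their values were seen, were FAR1-CIS3, CWP2-CWP1 and ECM38-EXG1, before 2 structural wall protein genes and a glucanase gene. In ECM38-EXG1 the summit lay 478, 472 and 474 bp before EXG1. With a G1/S gene downstream, none of 12 was occupied without auxin and 3, 3 and 4 with auxin, which are GIC2, CLN1 and PCL1 in each list and PCL2 in the third. With a drug or weak acid efflux gene downstream it was 1, 2 and 2 of 8 without and 3, 4 and 5 with auxin. PDR15 was kept and FLR1 gained, and TPO1, a polyamine transporter gene, had a summit in 2 of 3 lists without and in all 3 with auxin. Behind cell wall and plasma membrane genes it was none of 7 without and 1, 1 and 3 with auxin, behind G1/S genes 1 of 7 in each list without and none with auxin, PCL1-CAF40, and behind efflux genes 1, 0 and 1 of 8 without and 1, 1 and 2 with auxin.

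The other lists had few occupied spacers. Before chaperone genes it was 1, 1 and 1 of 11 without and 1, 2 and 4 with auxin, HSP42 being the kept one. Before glycolysis and fermentation genes, none of 10 was occupied without auxin and 0, 1 and 3 with auxin. The spacer before ADH1 is among these, and its promoter is also part of the OsTIR1 cassette, so that its reads have more than 1 source. Behind these genes none of 9 was occupied without auxin and 1 in each list with auxin, PDC6-PIL1. Before hexose transporter genes 1, 0 and 1 of 10 were occupied without and 1, 2 and 4 with auxin, and before amino acid biosynthesis genes 1, 1 and 2 of 24 without and 1, 1 and 2 with auxin, with LYS9 lost and GLN1 gained. Before translation factor genes the counts were 0, 0 and 0 of 13 without and 0, 0 and 1 with auxin, and before ribosome assembly genes 1, 1 and 0 of 16 without and none with auxin. Behind translation factor genes it was 0, 1 and 0 of 14 without and none with auxin, and behind ribosome assembly genes 0, 0 and 2 of 15 without and 1 in each list with auxin. Before genes of the CLB2 cluster, which are transcribed in G2 and mitosis, none of 7 was occupied in any list. Behind genes of the chaperone, amino acid biosynthesis, hexose transporter and CLB2 cluster lists no spacer held a summit in any list.

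**Figure D5:**
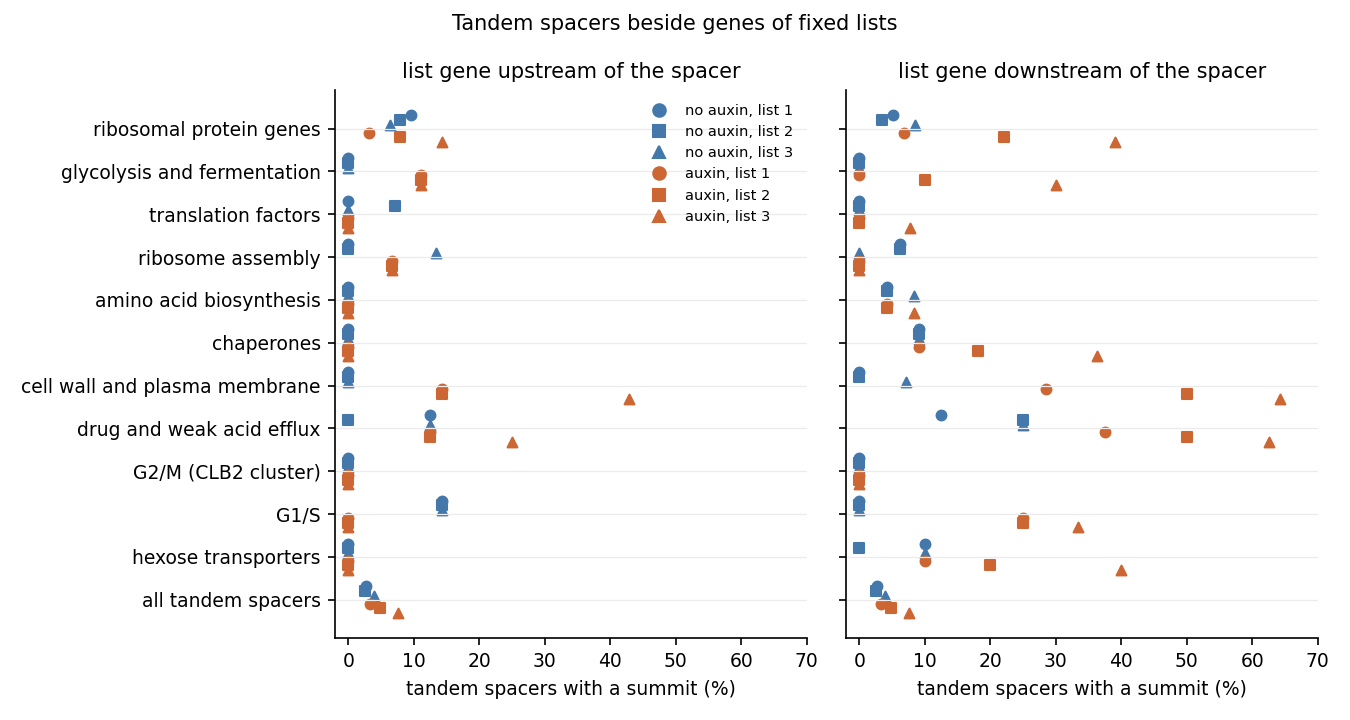
Share of tandem spacers with a summit (x axis, %) where a gene of each gene list (rows) lies upstream (left) or downstream (right) of the spacer, with all tandem spacers in the bottom row. Each symbol is a list. Spacers before cell wall and plasma membrane, G1/S and drug efflux genes hold a summit more often in every list with auxin than in any without it. The gene lists were chosen with earlier results of these data known, spacer lengths were not matched, and no difference was tested.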

How the data were processed

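Scc2 peaks were mapped in 6 Myc immunoprecipitates. The authors deposited one narrow peak list per replicate. Per the submitters' processing notes, Bowtie2 2.4.2 and MACS2 2.1.1.20160309 were used on sacCer3. What each tool was set to do, its cutoff and its control: not given in the sources used here. The fold enrichment of each peak is a ratio from the authors' peak caller, and the deposited lists give −log10 p and −log10 q per peak. The deposited score column, derived from −log10 q, was not used. The median fold decided which spacers are named, and −log10 values ranked or filtered peaks in the alternatives. No depth is given, so counting error is unknown, and the labels describe a culture per replicate.

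Spacers were built with Python 3.11.15, NumPy 2.4.6 and pandas 2.3.3 from 6002 nuclear coding genes, with the strand read from systematic names. Chromosome lengths and centromeres were entered from general knowledge. Where coding genes overlap, the one reaching farthest bounds the spacer. Lists were compared by an exact two-sided permutation test over 20 assignments, with Benjamini-Hochberg adjustment over 23 tests. Code was tested on simulated lists. Members and gene lists were chosen with earlier results of these data known. Tests of summits within 100 bp, in coding genes, by RNA gene, of touched spacers, of each other orientation and of the share of nuclear summits, and the profile and changes of place, were added after seeing the data. The rule named up to 10 lost, kept and gained spacers by fold, up to 5 kept ones moved each way, and lost or kept ones beside listed genes. Alternatives were another threshold, equal lists, peak overlap, peak middles, 1000 bp from tRNA genes, a minimum length of 200 bp, no RNA genes, 1 summit per spacer, looser agreement, lists left out and a replicate block. DNA sequence was not used here.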

Additional observations from a re-analysis of the deposited data

How the results depend on the processing

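Of 219 recomputed values, 202 kept their direction, or for counts stayed within 1.5 times the main count. Among the 202 are the values of the replicate block, which changes only the p-value, so that these could not differ. The shares of spacer-touching peaks by place of the summit kept the sign of auxin minus no auxin in every alternative run. So did the tandem minus divergent and tandem minus convergent differences and the shift in kept spacers. Only this sign was compared, not the sign within a group. When a peak had only to overlap the spacer, the tandem minus convergent difference was negative in every list without auxin. It was positive in each of these lists by summits. With auxin it was positive in every list either way. The median relative position (auxin minus no auxin, -0.00622) turned to 0.0255 with peak middles and 0.0447 with RNA genes left out, and ran from -0.0236 to 0.00812 with a list left out. The share past the midpoint (-3.28 points) turned to 0.224 with peak middles and 2.89 with RNA genes left out, and was -0.0272 without the first list with auxin, -0.594 without the third lacking it and -6.76 without the third with it. The distance to the upstream end (28.8 bp) turned to -17.8 bp with lists of equal length. Occupancy (2.19 points) turned to -1.73 when a peak had only to overlap the spacer, which gave 88 lost and 43 kept. Without the third list with auxin it was 0.994 points. Equal lists of 964 peaks gave 10 kept, leaving out RNA genes gave 4 lost, and agreement of 2 of 3 lists gave 31 lost, 38 kept and 89 gained. With a list left out, gained spacers ran from 31 to 58. Causes were not tested, beyond fewer lists having to agree.

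The replicate block gave p = 0.25 in an exact sign permutation test, the smallest that 3 pairs allow, for 11 of 13 tested results, 0.5 for the distance to the downstream start and 0.75 for the median relative position. Same-numbered lists correlated at 0.145, -0.0422 and -0.119 in their deviations over 248 spacers, and not every list correlated best with its own number. Correlations this weak cannot decide whether the numbers pair the samples. A peak list of unknown depth limits every count of spacers without a summit.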
